A study of Homo sapiens with 18 samples.

Results

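Fatty acid oxidation was described here through 35 genes of the mitochondrial and peroxisomal pathways, taken by gene symbol from the annotation of the array. No measured value picked a gene, but the list was drawn up with earlier results of these data known. Of the 35 genes, 33 had a named probe among the 20046 genes that did, and 32 were tested among 11978 genes. ACSL3 and SCP2 were not analysed here, and PEX3 did not pass the filter on detection. Each gene was read through the probe with its highest mean signal over the 18 arrays.

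In mitochondrial oxidation, a fatty acid is activated to an acyl-CoA, carried across the inner membrane as a carnitine ester and shortened in repeated rounds, each of which yields acetyl-CoA and passes electrons to the respiratory chain. Peroxisomes shorten very long and branched chains and produce hydrogen peroxide, which catalase breaks down. PPAR nuclear receptors, which bind DNA together with RXR, are known to activate many of these genes, and rosiglitazone is a ligand of PPARG.

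RNA of 3 urothelial cancer cell lines, all human, was hybridised to Illumina bead arrays, on which each probe's fluorescence is its signal, with 3 arrays in each of 6 groups. UC14 cells carried an shRNA against p63, a transcription factor of basal epithelia, or a non-targeting shRNA. Scaber cells received an siRNA against STAT3, a transcription factor activated by cytokine signalling, or a non-targeting siRNA. Rosiglitazone was given to UC7 cells at 1 µM, and RNA was taken after 24 h, with UC7 cells labelled as control for comparison. All lines grew in MEM with serum and came from a tissue bank for bladder cancer, and the sources used here do not say whether a knockdown line was 1 clone or whether the 3 arrays of a group were separate cultures. A p-value here therefore reflects how far the arrays of a group spread, and that spread may be technical.

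The median raw signal was 98.5 to 114 on the UC14 arrays, 96.3 to 116 on the Scaber arrays and 51.6 to 56.3 on the UC7 arrays, and 14032 to 15432, 16473 to 18021 and 19093 to 20440 probes were detected on them. Cell line and any batch of arrays cannot be told apart, so changes were taken only within a line. Epithelial markers (EPCAM, CDH1, KRT7, KRT8, KRT13, KRT18 and KRT19) were detected on all 18 arrays. Of the other epithelial and urothelial markers, PPARG was detected on 18 arrays, UPK1B on 13, GATA3 on 12 (0 in Scaber) and KRT20 on 0. The leukocyte marker PTPRC, the stromal markers PDGFRB and COL3A1 and the hepatocyte marker APOA1 were detected on 0 arrays. VIM was detected on all 18, COL1A1 on 16, COL1A2 on 7, CD14 on 15, PECAM1 on 12, CDH5 on 1 and ALB on 17. The umbrella-cell marker UPK2 was detected on 3 p63 shRNA and 0 non-targeting arrays in UC14 and on all 6 UC7 arrays, and the basal keratin KRT5 on 0 p63 shRNA and 3 non-targeting arrays. STAT3 itself fell by 3.26 ± 0.11 on the log2 scale in Scaber (adjusted p = 4.93e-12). TP63 was not analysed here, so the p63 knockdown was not checked on these arrays.

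Values are log2 signals after background correction and quantile normalization over the 18 arrays, and a change is the treated mean minus the control mean on that scale, with its standard error and 3 arrays in each group. A gene was called where limma's p, adjusted over the 11978 genes by Benjamini-Hochberg, was under 0.05. The standard error of a gene was shared by the 3 comparisons (median of the members 0.12), whereas the SD between arrays of 1 group had a median over the members of 0.15 in UC14, 0.14 in Scaber and 0.083 in UC7.

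Under rosiglitazone, 17 of the 32 members tested rose in UC7. CRAT, an acetyl-carnitine transferase, rose 3.01-fold, and ACSL5, an acyl-CoA synthetase, rose by 1.38 ± 0.10 on the log2 scale. ECI2, an isomerase for unsaturated chains, fell 2.78-fold and ACSL4, a synthetase that prefers arachidonate, fell 2.16-fold. In bulk RNA, fewer cells of a type and less RNA per cell cannot be told apart. The 17 members called higher and 3 called lower stood against 12.5% and 12% of all genes (24.5% called in either direction). The median change of the members was 0.406 and that of all genes -0.00086, and 23 members and 5976 of all genes had a positive change. Changes of at least 2-fold were called for 4 members (ACSL4, ACSL5, CRAT and ECI2), against 4.17% of all genes, but for 1 without background correction (ACSL5), 2 in the deposited values (ACSL5 and CRAT) and 2 with averaged probes (ECI2 and CRAT). The 3 treated and 3 control arrays did not overlap for 25 members, against 50.4% of all genes. Of the cell type markers, UPK3A was detected on 3 treated and 0 control arrays and COL1A1 on 1 treated and 3 control arrays, and their part in these counts was not tested.

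With the p63 shRNA, UC14 cells showed rises in 12 members and falls in 5, against 23.8% and 20.9% of all genes, so 44.7% of all genes were called in this comparison. ACADS, the short-chain acyl-CoA dehydrogenase, rose 3.39-fold and was the 1 member changed at least 2-fold, against 9.02% of all genes. Without background correction and in the deposited values 0 members reached 2-fold, and with median scaling 2 did (ACADS and ACSL1). DECR1, ACSL1, ACSL5 and ACADVL rose by 0.74 to 0.84, and ACSL4 fell by 0.94. The median change was 0.157 against 0.00629 for all genes, 20 members had a positive change, and the groups did not overlap for 21 members, against 47% of all genes. The loss of KRT5 and the gain of UPK2 described above fall on the same arrays, and their part in these counts was not tested.

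With the STAT3 siRNA in Scaber, 10 members rose and 0 fell, against 12.1% and 13.8% of all genes (25.9% in either direction). The peroxisomal thiolase ACAA1 rose most, by 0.70 ± 0.13, and 0 members changed 2-fold, against 2.65% of all genes. The median change was 0.181 against 0.014, 23 members had a positive change, and the groups did not overlap for 13 members, against 39.1% of all genes.

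Bright probes are called more often, so the members were also set beside the 5989 brighter genes, which held 24 of them. Called higher there were 15 members in UC7 (62.5% against 14.9% of these genes), 11 in UC14 (45.8% against 26.8%) and 7 in Scaber (29.2% against 15.3%). With scaling of each array to its median in place of quantile normalization, the members called higher and lower became 9 and 3 in UC7, 12 and 2 in UC14, and 3 and 0 in Scaber. Among all genes this scaling called 1093 of 2702 higher in UC7, 3144 of 4415 in UC14 and 411 of 2316 in Scaber, where quantile normalization had called 1492 of 2934, 2845 of 5351 and 1451 of 3106.

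**Figure D1:**
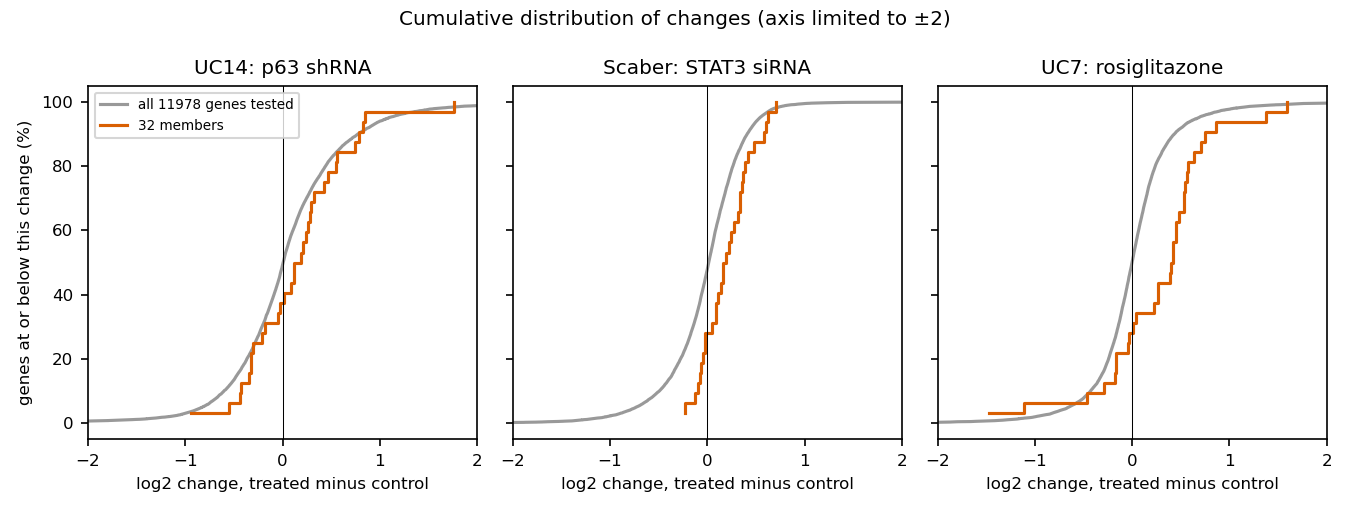
Cumulative share of genes (y axis, %) at or below each log2 change (x axis, treated minus control) for the 32 members (orange) and all 11978 genes tested (grey) in each comparison. The member curve lies to the right of the grey curve around the middle, with medians of 0.157 in UC14, 0.181 in Scaber and 0.406 in UC7.

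**Figure D2:**
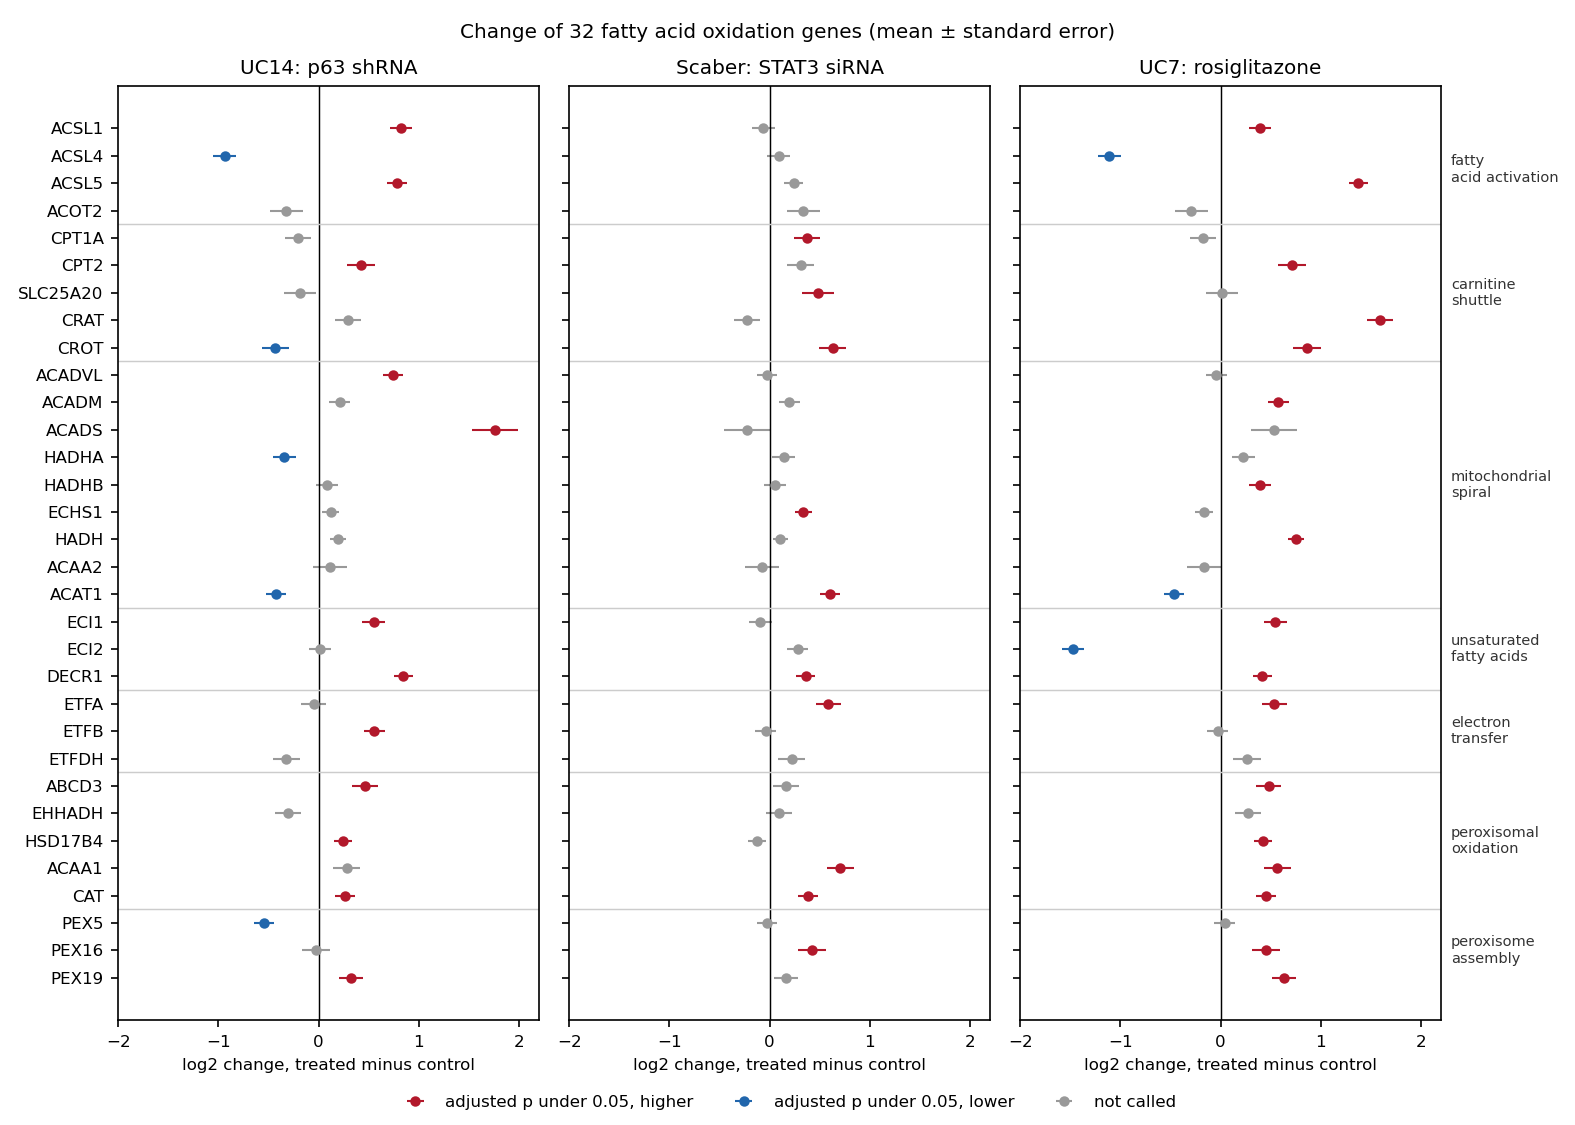
Log2 change (x axis, treated minus control, mean ± standard error, 3 arrays in each group) of each member, ordered by role, in UC14, Scaber and UC7, with called members in red (higher) or blue (lower). Rosiglitazone gave 17 red and 3 blue points, the p63 shRNA 12 and 5, and the STAT3 siRNA 10 and 0.

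Long-chain acyl-CoA synthetases open the pathway by joining a fatty acid to coenzyme A, and their members moved in opposite directions. ACSL5, an isoform found at mitochondria and the endoplasmic reticulum, measured 8.89, 9.02 and 8.88 in UC7 controls and 10.41, 10.26 and 10.26 with rosiglitazone (1.38 ± 0.10, adjusted p = 1.64e-08). Every treated array lay above every control array. In UC14 it measured 9.48, 9.31 and 9.44 on non-targeting arrays and 10.03, 10.16 and 10.39 with the p63 shRNA (0.78 ± 0.10, adjusted p = 5.72e-06), again without overlap. In Scaber the change was 0.24 ± 0.10 (adjusted p = 0.0824), and 2 of 14 alternatives called it higher. In the fit of all kept probes, 2 dimmer ACSL5 probes rose there by 0.48 (adjusted p = 0.00841) and 0.73 (adjusted p = 0.0206). In UC7 these probes gave 1.27 (adjusted p = 6.71e-07) and 0.31 (adjusted p = 0.361). The rise in UC7 exceeded that in UC14 by 0.59 ± 0.14 (adjusted p = 0.00325).

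The promoter window of ACSL5 is shown because this gene had the largest rise among the synthetases under a PPARG ligand and is the 1 member whose window holds AGGTCA, the sequence of which the PPAR and RXR site is a repeat. The window is from RefSeq on GRCh38.p14, 250 bases before to 50 after an annotated start, and is 1 of 2 for the gene, at chr10:112375018-112375317 on the plus strand. The letters AGGTCA, in capitals, begin 223 bases before the start.
ACSL5: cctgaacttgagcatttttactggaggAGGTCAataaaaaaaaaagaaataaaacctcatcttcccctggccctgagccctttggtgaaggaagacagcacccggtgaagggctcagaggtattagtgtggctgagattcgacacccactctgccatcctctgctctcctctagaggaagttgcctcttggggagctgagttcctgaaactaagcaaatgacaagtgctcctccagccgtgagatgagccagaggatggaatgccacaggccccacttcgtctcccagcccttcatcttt
AGGTCA was found on either strand of 13.8% of all 35116 windows, and in 1 of 45 windows of the 30 members that had one. Its direct repeat with 1 free base between the copies, which contains it, was found in 0.0228% of all windows and in 0 of the 45. A part of these letters in the rise was not tested. CRAT, ACAA1, DECR1, EHHADH and ETFDH were not matched to a window.

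ACSL4, whose activity places arachidonate and other polyunsaturated chains into phospholipids, went the other way in both lines. It measured 8.96, 9.06 and 8.78 in UC7 controls and 7.66, 7.86 and 7.96 with rosiglitazone (-1.11 ± 0.12, adjusted p = 1.51e-06). In UC14 the arrays read 8.77, 8.62 and 8.45 with the non-targeting shRNA and 7.49, 7.88 and 7.66 with the p63 shRNA (-0.94 ± 0.12, adjusted p = 5.11e-06). Treated arrays were all below the controls in both. Scaber gave 0.09 ± 0.12 (adjusted p = 0.635), which differed from the change in UC7 by 1.20 ± 0.16 (adjusted p = 3.74e-05) and from that in UC14 by 1.03 ± 0.16 (adjusted p = 9.19e-05). In the fit of all kept probes another, dimmer ACSL4 probe was undetected in UC14. It changed by -0.29 (adjusted p = 0.111) in UC7 and by 0.41 (adjusted p = 0.0205) in Scaber. With the mean of both probes the change was -0.56 in UC14 and -0.70 in UC7.

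ACSL1, the main synthetase of many oxidative tissues, measured 8.48, 8.42 and 8.24 on non-targeting arrays in UC14 and 9.30, 8.99 and 9.31 with the p63 shRNA (0.82 ± 0.11, adjusted p = 1.85e-05), with no overlap. Its rise in UC7 was 0.39 ± 0.11 (adjusted p = 0.0176), and this call was lost without rosiglitazone replicate 1 (0.38) or 2 (0.35), control replicate 2 (0.38) or 3 (0.34), and under median scaling (0.32). In Scaber the change was -0.06 ± 0.11. ACOT2, a mitochondrial thioesterase that reverses activation, was not called in any comparison. It was undetected on all 6 UC14 arrays, and its changes were 0.34 ± 0.17 in Scaber and -0.29 ± 0.17 in UC7.

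The carnitine shuttle moves acyl groups into the mitochondrion through CPT1A, SLC25A20 and CPT2, and the transferases CRAT and CROT were grouped with it. Under rosiglitazone 3 of these 5 genes rose (CPT2, CRAT and CROT), where 12.5% of all genes did. CPT1A and SLC25A20 were not called there. CRAT, which exchanges acetyl groups between coenzyme A and carnitine, measured 6.17, 5.90 and 5.94 in UC7 controls and 7.61, 7.55 and 7.63 with rosiglitazone (1.59 ± 0.13, adjusted p = 7.7e-08). All treated arrays were above all controls. The size depended on background correction, since the change was 0.98 without it and 1.00 in the deposited normalized values. In Scaber CRAT changed by -0.23 ± 0.13 (adjusted p = 0.217), which differed from UC7 by 1.82 ± 0.18 (adjusted p = 1.42e-06). It was undetected on all 6 UC14 arrays.

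CROT, which makes carnitine esters of the medium chains that leave peroxisomes, was called in all 3 comparisons but not in 1 direction. In UC7 it measured 5.77, 5.90 and 6.14 in controls and 6.82, 6.78 and 6.80 with rosiglitazone (0.86 ± 0.14, adjusted p = 0.00016), or 0.48 without background correction. In Scaber it measured 7.75, 7.40 and 7.62 with the non-targeting siRNA and 7.99, 8.44 and 8.23 with the STAT3 siRNA (0.63 ± 0.14, adjusted p = 0.00271). Treated arrays exceeded controls in both.

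In UC14 CROT measured 8.28, 8.13 and 8.35 on non-targeting arrays and 7.78, 7.62 and 8.07 with the p63 shRNA (-0.43 ± 0.14, adjusted p = 0.0166). The shRNA arrays were the lower ones. The UC14 call was lost without non-targeting replicate 3 (-0.38), without p63 shRNA replicate 2 (-0.33) and under median scaling (-0.27), while the Scaber change was 0.47 under median scaling (adjusted p = 0.0652, and 0.000533 to 0.0652 over the alternatives). The UC14 change was below that in Scaber by 1.06 ± 0.19 (adjusted p = 0.000342) and below that in UC7 by 1.29 ± 0.19 (adjusted p = 8.23e-05).

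CPT1A, the outer-membrane transferase that controls entry of long chains, changed by -0.17 ± 0.13 with rosiglitazone (adjusted p = 0.395). It measured 5.87, 5.87 and 5.84 in controls and 5.64, 5.73 and 5.69 with rosiglitazone, so the treated arrays were slightly lower without overlap. In UC14 it changed by -0.21 ± 0.13 (adjusted p = 0.215). Over the alternatives this change lay between -0.51 and -0.01, and 2 of 14 called it lower. A dimmer CPT1A probe was detected on 2 non-targeting and 0 p63 shRNA arrays. In the fit of all kept probes that probe was lower by 1.11 (adjusted p = 0.000458), a difference against background. In Scaber the change was 0.37 ± 0.13 (adjusted p = 0.0461). That call was lost when any of 5 of the 6 arrays was left out (0.29 to 0.41 and adjusted p up to 0.168; non-targeting replicate 2 was the exception), under median scaling (0.20), and with the mean of its probes (0.18).

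CPT2, the inner-membrane partner of CPT1A, rose in UC7 by 0.71 ± 0.14 (adjusted p = 0.000848) and in UC14 by 0.42 ± 0.14 (adjusted p = 0.0178). The UC14 call was lost without non-targeting replicate 1 (0.33) or 2 (0.39) or p63 shRNA replicate 2 (0.39). SLC25A20, the carrier that exchanges carnitine for acyl-carnitine, measured 5.96, 6.51 and 6.32 in Scaber with the non-targeting siRNA and 6.99, 6.5 and 6.75 with the STAT3 siRNA (0.48 ± 0.16, adjusted p = 0.0361). The groups overlapped, since 1 treated array lay just below the highest control. The call was lost without replicate 1 or 3 of the non-targeting siRNA (0.33 and 0.51) or of the STAT3 siRNA (0.36 and 0.48), and under median scaling (0.29). SLC25A20 changed by 0.01 ± 0.16 in UC7 and -0.18 ± 0.16 in UC14. In the fit of all kept probes a dimmer SLC25A20 probe rose in Scaber by 0.73 (adjusted p = 0.0309), detected on 2 non-targeting and 3 STAT3 siRNA arrays. It changed by -0.31 in UC7 (adjusted p = 0.413) and by 0.31 in UC14 (adjusted p = 0.322), there opposite in sign to the brighter probe.

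**Figure D3:**
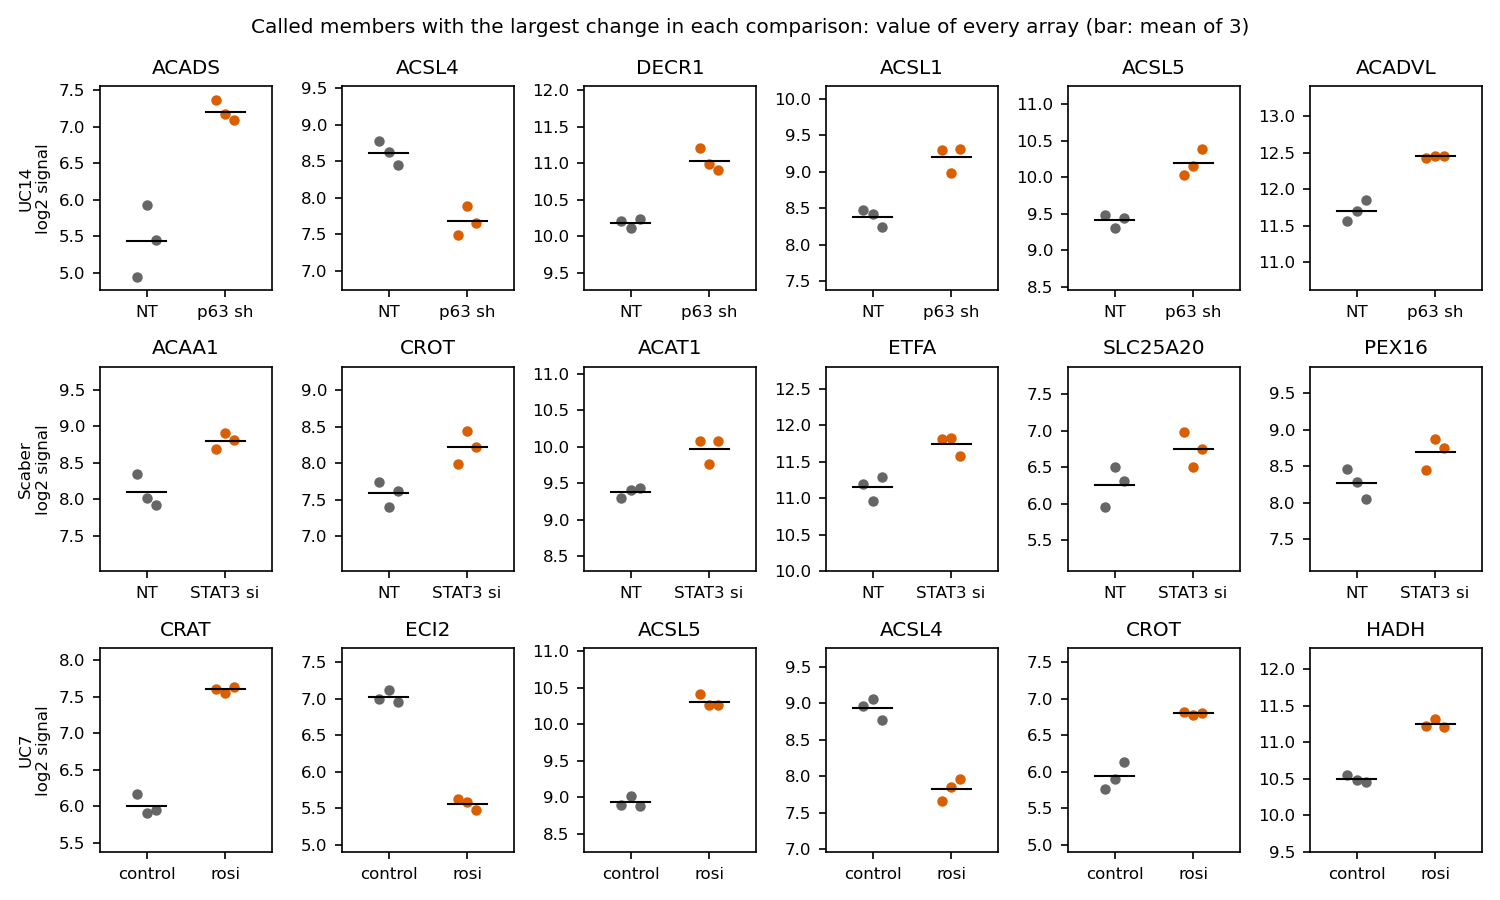
Log2 signal (y axis, spanning the same range in every panel) of each array for the 6 called members with the largest change in UC14 (top), Scaber (middle) and UC7 (bottom), with control arrays in grey, treated arrays in orange and a bar at each mean of 3. Treated and control arrays are separate in all panels except those of SLC25A20 and PEX16 in Scaber.

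The mitochondrial spiral shortens the chain through a dehydrogenase, a hydratase, a second dehydrogenase and a thiolase. Its 3 acyl-CoA dehydrogenases share the work by chain length. ACADS, for short chains, measured 4.95, 5.93 and 5.45 on non-targeting arrays in UC14, of which 1 was above the detection threshold, and 7.37, 7.17 and 7.09 with the p63 shRNA (1.76 ± 0.23, adjusted p = 9.23e-06). All 3 shRNA arrays lay above the controls. The change was 0.97 without background correction and in the deposited values.

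ACADS changed by -0.23 ± 0.23 in Scaber and 0.53 ± 0.23 (adjusted p = 0.108) in UC7. The UC14 rise exceeded these by 1.99 ± 0.32 (adjusted p = 0.000117) and 1.23 ± 0.32 (adjusted p = 0.00765). The promoter window of ACADS is shown because the gene had the largest rise in UC14 and its window, the only one of the gene, is 1 of 2 among the members' windows that hold TTCNNNGAA, the letters of a STAT site, while ACADS was not called under the STAT3 siRNA. It lies at chr12:120725576-120725875 on the plus strand of GRCh38.p14 (RefSeq), and the match, in capitals, begins 216 bases before the start.
ACADS: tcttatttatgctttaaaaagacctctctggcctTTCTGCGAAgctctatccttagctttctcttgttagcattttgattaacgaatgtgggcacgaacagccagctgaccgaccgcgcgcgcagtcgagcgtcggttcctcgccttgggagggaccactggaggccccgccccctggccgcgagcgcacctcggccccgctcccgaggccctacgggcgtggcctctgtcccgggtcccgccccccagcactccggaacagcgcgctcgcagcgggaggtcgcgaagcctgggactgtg
The other match was in 1 of 5 windows of ACSL1, beginning 138 bases before the start, and ACSL1 was not called in Scaber either. TTCNNNGAA reads alike on both strands and was found in 7.66% of all windows.

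ACADVL, for very long chains, measured 11.57, 11.70 and 11.85 on non-targeting arrays and 12.43, 12.46 and 12.46 with the p63 shRNA (0.74 ± 0.10, adjusted p = 1.74e-05). The shRNA arrays were higher without exception. In Scaber and UC7 it changed by -0.02 ± 0.10 and -0.04 ± 0.10, and the UC14 change exceeded that in UC7 by 0.78 ± 0.14 (adjusted p = 0.000519). Probes of ACADVL disagreed in UC7, where the 2 others changed by 0.71 (adjusted p = 0.0031) and 0.03. ACADM, for medium chains, rose by 0.58 ± 0.11 in UC7 (adjusted p = 0.000584), where its other probe gave 0.60, and changed by 0.21 ± 0.11 in UC14. In Scaber its probes gave 0.20 (adjusted p = 0.206) and 0.53 (adjusted p = 0.0367) in the fit of probes.

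HADH, the dehydrogenase for medium and short hydroxyacyl chains, measured 10.55, 10.48 and 10.46 in UC7 controls and 11.22, 11.32 and 11.21 with rosiglitazone (0.75 ± 0.08, adjusted p = 1.6e-06), with all treated arrays above the controls. The change in UC7 exceeded those in UC14 (0.19 ± 0.08) and Scaber (0.11 ± 0.08) by 0.56 ± 0.11 (adjusted p = 0.000981) and 0.64 ± 0.11 (adjusted p = 0.000354). HADHA and HADHB, the subunits of the trifunctional protein for long chains, were each called in 1 comparison.

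HADHA measured 8.33, 8.36 and 8.12 on non-targeting arrays in UC14 and 7.92, 7.86 and 8.0 with the p63 shRNA (-0.34 ± 0.12, adjusted p = 0.0218), all shRNA arrays being lower. That call was lost without non-targeting replicate 1 (-0.31) or 2 (-0.30), without p63 shRNA replicate 1 (-0.34) or 2 (-0.31), and under median scaling (-0.18). HADHB rose by 0.40 ± 0.11 in UC7 (adjusted p = 0.0134), a call lost without rosiglitazone replicate 1 (0.34), without control replicate 3 (0.30) and under median scaling (0.29).

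ECHS1, the short-chain hydratase, rose in Scaber by 0.34 ± 0.09 (adjusted p = 0.00861; 0.28 and not called under median scaling) and changed by -0.17 ± 0.09 in UC7. ACAA2, the mitochondrial thiolase, was not called in any comparison and was undetected on all 6 UC14 arrays. ACAT1, which handles the last acetyl units and also acts in ketone and isoleucine metabolism, was called in all 3 comparisons. It measured 10.31, 10.42 and 10.45 on non-targeting arrays in UC14 and 9.90, 9.85 and 10.16 with the p63 shRNA (-0.42 ± 0.10, adjusted p = 0.00249; -0.30 and not called under median scaling).

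In UC7 ACAT1 measured 10.51, 10.55 and 10.54 in controls and 10.06, 10.13 and 10.02 with rosiglitazone (-0.47 ± 0.10, adjusted p = 0.00239). In Scaber it measured 9.30, 9.40 and 9.43 with the non-targeting siRNA and 10.08, 9.76 and 10.08 with the STAT3 siRNA (0.60 ± 0.10, adjusted p = 0.000314). No groups overlapped, with the treated arrays lower in UC14 and UC7 and higher in Scaber. The Scaber change exceeded that in UC14 by 1.02 ± 0.14 (adjusted p = 2.65e-05) and that in UC7 by 1.07 ± 0.14 (adjusted p = 3.28e-05). ACAT1 and CROT were the 2 members called higher in one line and lower in another, against 11.1% of all genes.

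Unsaturated fatty acids need auxiliary enzymes that move or reduce their double bonds. ECI2, an isomerase found in mitochondria and peroxisomes, measured 7.0, 7.12 and 6.96 in UC7 controls and 5.62, 5.58 and 5.47 with rosiglitazone (-1.47 ± 0.11, adjusted p = 1.97e-08). Treated arrays were far below the controls. Another ECI2 probe fell by 0.93 ± 0.17 (adjusted p = 0.000551), and the change of the brighter probe was -0.81 without background correction and in the deposited values. ECI2 changed by 0.01 ± 0.11 in UC14 and 0.28 ± 0.11 in Scaber, which the UC7 change was below by 1.49 ± 0.15 (adjusted p = 1.17e-06) and 1.75 ± 0.15 (adjusted p = 2.33e-07).

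The mitochondrial isomerase ECI1 rose in UC7 by 0.55 ± 0.12 (adjusted p = 0.00224; 0.45 and adjusted p = 0.0526 under median scaling, and 4.61e-05 to 0.0526 over the alternatives) and in UC14 by 0.55 ± 0.12 (adjusted p = 0.00103). Its change in Scaber was -0.09 ± 0.12. DECR1, the mitochondrial dienoyl-CoA reductase, was called higher in all 3 comparisons, as was CAT. Together they were the 2 members with this pattern, against 0.977% of all genes. Lower in all 3 were 0 members, against 0.868%. DECR1 measured 10.20, 10.11 and 10.24 on non-targeting arrays in UC14 and 11.20, 10.98 and 10.90 with the p63 shRNA (0.84 ± 0.10, adjusted p = 2.29e-06), with no overlap. It rose by 0.36 ± 0.10 in Scaber (adjusted p = 0.0106) and by 0.42 ± 0.10 in UC7 (adjusted p = 0.00399), and under median scaling these were 0.31 and 0.32 and not called.

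Electrons leave the acyl-CoA dehydrogenases through the flavoprotein ETFA and ETFB and the dehydrogenase ETFDH. The subunits of the flavoprotein were called in different comparisons. ETFA measured 11.20, 10.97 and 11.30 in Scaber with the non-targeting siRNA and 11.82, 11.83 and 11.58 with the STAT3 siRNA (0.59 ± 0.12, adjusted p = 0.00216), with all treated arrays above the controls. It rose in UC7 by 0.54 ± 0.12 (adjusted p = 0.00409) and changed by -0.05 ± 0.12 in UC14. ETFB rose in UC14 by 0.56 ± 0.11 (adjusted p = 0.000383), where its other probe gave 0.45 (adjusted p = 0.00192), and changed by -0.04 ± 0.11 in Scaber and -0.03 ± 0.11 in UC7. The UC14 change of ETFB exceeded that in UC7 by 0.59 ± 0.15 (adjusted p = 0.00637), and that of ETFA was below it by 0.58 ± 0.18 (adjusted p = 0.0174). ETFDH was not called in any comparison (-0.32, 0.22 and 0.26 in UC14, Scaber and UC7). Its UC14 change was below that in UC7 by 0.58 ± 0.19 (adjusted p = 0.0288) and below that in Scaber by 0.54 ± 0.19 (adjusted p = 0.033).

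Peroxisomal oxidation had rises and no falls, with 4 of 5 genes called in UC7, 3 in UC14 and 2 in Scaber, where 12.5%, 23.8% and 12.1% of all genes rose. Under median scaling 0 of the 5 were called in UC7, 3 in UC14 and 1 in Scaber. ACAA1, the peroxisomal thiolase, measured 8.35, 8.01 and 7.92 in Scaber with the non-targeting siRNA and 8.69, 8.90 and 8.81 with the STAT3 siRNA (0.70 ± 0.13, adjusted p = 0.000868). The treated arrays were all higher. It rose in UC7 by 0.57 ± 0.13 (adjusted p = 0.00441; 0.46 and not called under median scaling) and changed by 0.28 ± 0.13 in UC14 (adjusted p = 0.0997).

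ABCD3, which brings fatty acids into the peroxisome, rose in UC14 by 0.46 ± 0.13 (adjusted p = 0.00682) and in UC7 by 0.48 ± 0.13 (adjusted p = 0.0103). The UC7 call was lost without rosiglitazone replicate 1 (0.42), without control replicate 1 (0.42) and under median scaling (0.38). HSD17B4, the multifunctional enzyme for very long and branched chains, rose in UC7 by 0.42 ± 0.09 (adjusted p = 0.00209; 0.34 and not called under median scaling). In UC14 it rose by 0.24 ± 0.09 (adjusted p = 0.0398), a call lost without non-targeting replicate 2 (0.25) or 3 (0.19) or p63 shRNA replicate 2 (0.21) or 3 (0.24). EHHADH, the other multifunctional enzyme, was not called (-0.31, 0.09 and 0.27 in UC14, Scaber and UC7). Its UC14 change was below that in UC7 by 0.58 ± 0.18 (adjusted p = 0.0225), and the difference from Scaber was not called (adjusted p = 0.0913).

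CAT, which encodes catalase, rose in UC7 by 0.45 ± 0.10 (adjusted p = 0.00262), in Scaber by 0.39 ± 0.10 (adjusted p = 0.00801) and in UC14 by 0.26 ± 0.10 (adjusted p = 0.0399). It measured 9.31, 9.16 and 9.01 in UC7 controls and 9.67, 9.57 and 9.59 with rosiglitazone, and 9.43, 9.52 and 9.42 against 9.90, 9.89 and 9.74 in Scaber. The groups did not overlap in either line. Under median scaling the changes were 0.34, 0.30 and 0.40, called only in UC14. The UC14 call was lost without non-targeting replicate 2 (0.22) or 3 (0.26) or p63 shRNA replicate 2 (0.17), and the other CAT probe, at 0.43, 0.33 and 0.28, was not called in any line.

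Peroxins build the peroxisome and import its enzymes. PEX5, the receptor that brings most matrix enzymes in, measured 10.72, 10.49 and 10.28 on non-targeting arrays in UC14 and 9.92, 9.96 and 9.98 with the p63 shRNA (-0.55 ± 0.10, adjusted p = 0.00029). The shRNA arrays were all lower, while PEX5 changed by -0.02 ± 0.10 in Scaber and 0.04 ± 0.10 in UC7. PEX19, the chaperone of peroxisomal membrane proteins, rose in UC7 by 0.63 ± 0.12 (adjusted p = 0.000725). In UC14 it rose by 0.32 ± 0.12 (adjusted p = 0.0349), a call lost without non-targeting replicate 1 (0.30), 2 (0.34) or 3 (0.33) or p63 shRNA replicate 3 (0.23).

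PEX16, which acts in the formation of peroxisomal membranes, measured 8.46, 8.29 and 8.05 in Scaber with the non-targeting siRNA and 8.45, 8.87 and 8.75 with the STAT3 siRNA (0.42 ± 0.14, adjusted p = 0.034). The groups overlapped by 1 array. That call was lost without replicate 2 or 3 of the non-targeting siRNA (0.44 and 0.31) or of the STAT3 siRNA (0.33 and 0.39), and under median scaling (0.29). The UC7 rise of PEX16, 0.45 ± 0.14 (adjusted p = 0.0262), was lost when any of the 6 arrays was left out (0.40 to 0.47 and adjusted p up to 0.0965), and its other probe gave -0.06 there. PEX3 was detected on 2 UC7 control arrays and on 0 of the others, with mean log2 signals of 5.00 in UC7 controls and 4.59 with rosiglitazone.

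**Figure D4:**
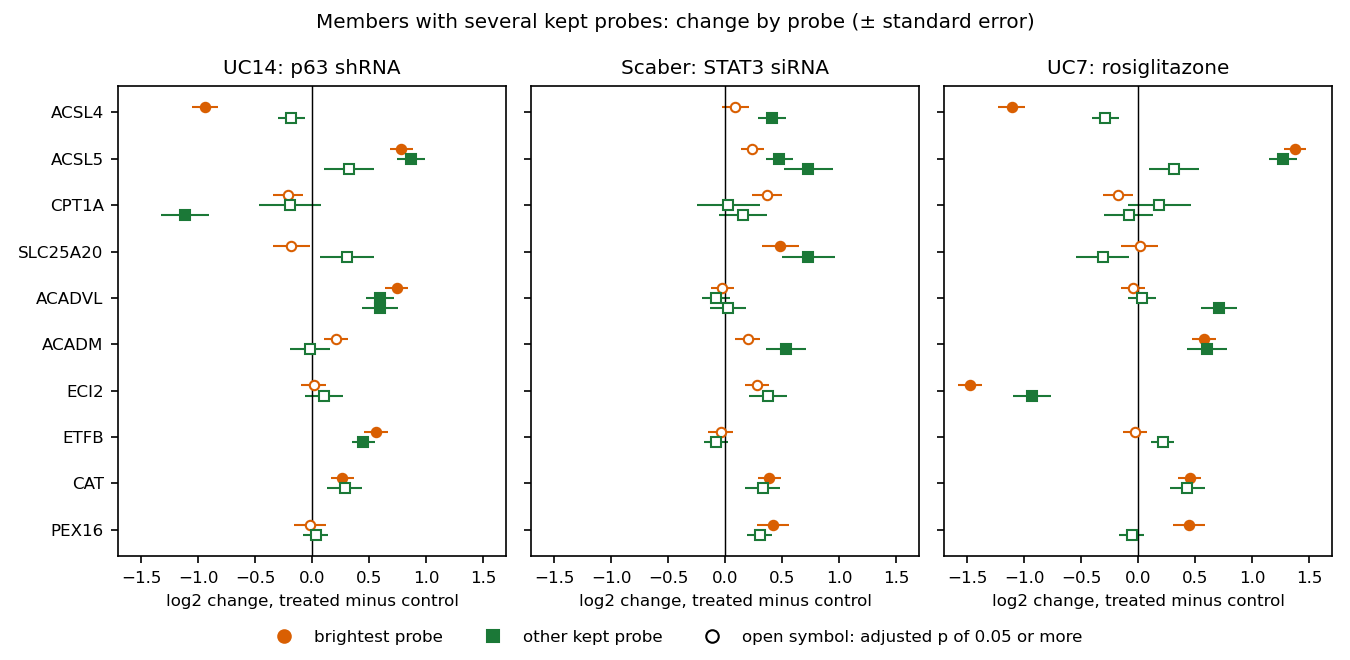
Log2 change (x axis, treated minus control, ± standard error) of every kept probe of the 10 members with several, by comparison, with circles for the brightest probe, squares for the others and filled symbols for an adjusted p under 0.05. Probes differ in size for ACSL4 and ACSL5, and for ACADVL and PEX16 in UC7, while both ECI2 probes fell in UC7. Points of probes undetected in a group, such as the dimmest CPT1A probe in UC14, are differences against background and no measured fold.

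Across the lines 28 members were called in at least 1 comparison, against 64.7% of all genes, and the 4 that were not were ETFDH, ACAA2, EHHADH and ACOT2. Tests of the difference between responses called 14 members between UC7 and UC14, 12 between UC7 and Scaber and 19 between UC14 and Scaber, against 33.1%, 28.1% and 42% of all genes. Leaving out CRAT and ACOT2 where they were undetected in UC14, 13, 12 and 17 were called. These differences join line, agent and any batch of arrays, which cannot be told apart.

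Levels before treatment also differed between lines and are given as a description. ACOT2 averaged 9.07 ± 0.20 in Scaber controls, 6.77 ± 0.19 in UC7 controls and 4.79 ± 0.40 in UC14 controls, where it was undetected. ACAA2 averaged 9.01 ± 0.06 in UC7, 6.34 ± 0.29 in Scaber and 4.94 ± 0.24 in UC14, again undetected (SD, n = 3 arrays each). ECI2, which fell in UC7, was already lowest there (7.03 ± 0.08 against 9.46 ± 0.18 in UC14 and 9.76 ± 0.04 in Scaber), and PEX19, which rose there, was already highest (10.43 ± 0.20 against 8.0 ± 0.04 and 8.74 ± 0.11). CPT2 and CAT differed least, by 0.28 and 0.29 between the lowest and highest line.

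Genes of the wider pathway and its regulators were set beside the members, and their counts stand against 23.8% of all genes higher and 20.9% lower in UC14, 12.1% and 13.8% in Scaber, and 12.5% and 12% in UC7. Of 22 other mitochondrial oxidation genes, 10 rose and 3 fell in UC14, 10 and 2 in Scaber, and 7 and 2 in UC7. Under the alternatives the number called lay between 11 and 15 (UC14), 5 and 13 (Scaber) and 6 and 13 (UC7). Median scaling called 11 higher and 1 lower in UC14, 3 and 2 in Scaber, and 4 and 3 in UC7. In UC14, ACACB and CPT1C, undetected on the control arrays, were at least 1.82-fold and 1.54-fold higher, and the carnitine transporter SLC22A5 rose by 1.17 ± 0.11. ACACB makes the malonyl-CoA that inhibits CPT1A. In Scaber the isovaleryl-CoA dehydrogenase IVD rose by 0.89 ± 0.09 and the glutaryl-CoA dehydrogenase GCDH by 0.72 ± 0.13, while AUH, a hydratase of leucine breakdown, fell by 0.80 ± 0.13. In UC7 SLC22A5 rose by 0.96 ± 0.11, MCEE by 0.76 ± 0.11 and the malonyl-CoA decarboxylase MLYCD by 0.66 ± 0.12. MLYCD changed by 0.36 without background correction and GCDH by 0.43 with averaged probes.

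Of 26 other peroxisomal genes, 12 rose and 3 fell in UC14 and 8 rose and 2 fell in each of the other lines. The alternatives gave 11 to 15 calls for UC14, 4 to 11 for Scaber and 6 to 14 for UC7, with 6 in UC7 without rosiglitazone replicate 3. Median scaling called 2 higher and 2 lower in Scaber and 4 higher and 2 lower in UC7. PHYH, which starts the oxidation of phytanic acid, rose in UC14 by 1.35 ± 0.10, the acyl-CoA synthetase SLC27A2 by 1.10 ± 0.10 and ECH1 by 0.93 ± 0.09. In UC7 the isocitrate dehydrogenase IDH1 rose by 1.32 ± 0.13, PEX11A, a factor of peroxisome division, by 1.10 ± 0.17 and the oxidase ACOX3 by 0.80 ± 0.18, and without background correction PEX11A and ACOX3 rose by 0.66 and 0.52. In Scaber DECR2 rose by 0.58 ± 0.09 and the protease LONP2 by 0.51 ± 0.11, and PXMP2 fell by 0.53 ± 0.12. Among ketone body enzymes, of which 2 were tested, BDH1 rose in UC14 by 1.25 ± 0.24, with 1 non-targeting array detected (0.67 without background correction). The list had 1 gene called there, and 2 without non-targeting replicate 1 or p63 shRNA replicate 2 or 3, and 0 in the other lines.

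Of 20 regulators, 2 rose and 4 fell in UC14, 4 and 3 in Scaber, and 2 and 2 in UC7, and over the alternatives 5 to 7, 6 to 9 and 3 to 12 were called. PPARG changed by 0.08 ± 0.08 in UC14 and -0.01 ± 0.08 in Scaber, and fell by 0.37 ± 0.08 in UC7 (adjusted p = 0.00249). PPARD rose in UC14 by 0.50 ± 0.11 (adjusted p = 0.00114; 0.21 and not called with averaged probes) and changed by 0.00 and 0.28 in Scaber and UC7. PPARA was undetected in UC14, changed by 0.16 ± 0.12 in UC7 and fell by 0.47 ± 0.12 in Scaber (adjusted p = 0.0099), where 1 STAT3 siRNA array was above the threshold. That call was lost in the deposited values (-0.19), with averaged probes (-0.12), from the Scaber arrays alone (-0.47), and when replicate 3 of the non-targeting siRNA (-0.38) or 2 of the STAT3 siRNA (-0.33) was left out.

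TFAM, a factor of mitochondrial DNA, fell by 0.84 ± 0.08 in UC14 and rose by 0.68 ± 0.08 in Scaber, and LPIN1, a phosphatase and coactivator, fell by 1.08 ± 0.13 and rose by 0.67 ± 0.13. In UC14 the kinase subunit PRKAB2 fell by 0.95 ± 0.15. In UC7 PRKAG1, another subunit of this kinase, rose by 0.99 ± 0.15, and the coactivator PPARGC1B, detected on 2 control arrays, by 0.85 ± 0.21. Without background correction PRKAB2 changed by -0.57, PRKAG1 by 0.65 and PPARGC1B by 0.40.

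Other lipid genes known to follow PPAR ligands were called most often in UC7, where 7 of 10 rose and 1 fell. FABP4, a fatty acid carrier, rose there by 6.60 ± 0.17, the mitochondrial carrier UCP2 by 2.50 ± 0.19 and the fatty acid transporter CD36 by 1.76 ± 0.09, changes larger than those of the members. In Scaber 0 rose and 5 fell, among them ANGPTL4 (-1.72 ± 0.24), FABP4 (at least 1.49-fold lower) and PLIN2 (-0.61 ± 0.11). ANGPTL4 changed by -1.08 with averaged probes, and PLIN2 by -0.38 without background correction. In UC14 1 rose, UCP2 (at least 15.3-fold higher), and 2 fell, FABP4 (-2.18 ± 0.17) and PLIN2 (-0.32 ± 0.11). The UC14 call of PLIN2 was lost without replicate 1 of the non-targeting shRNA (-0.22) or of the p63 shRNA (-0.19), under median scaling (-0.19), and with array weights, the 6 arrays alone and the replicate block. The alternatives called 2 to 4 genes of the list for UC14, 4 to 5 for Scaber and 7 to 10 for UC7.

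Neighbouring pathways were counted in the same way. Of 14 tricarboxylic acid cycle genes, 2 rose and 5 fell in UC14, 7 and 2 in Scaber, and 3 and 1 in UC7. Of 7 called in UC14, 1 was called with array weights or the 6 arrays alone, 3 without p63 shRNA replicate 2 and 4 without replicate 3. Median scaling called 3 higher and 1 lower in UC14, so the balance there turned from falls to rises. It called 0 higher and 2 lower in Scaber and 1 and 1 in UC7, where 2 were called without rosiglitazone replicate 1. Among them, citrate synthase (CS) fell by 0.51 ± 0.08 and DLD by 0.40 ± 0.14 in UC14, where OGDH rose by 0.36 ± 0.12. The DLD call was lost without non-targeting replicate 1 (-0.37) or 3 (-0.40) or p63 shRNA replicate 3 (-0.29), and with median scaling, array weights and the 6 arrays alone. That of OGDH was lost without non-targeting replicate 2 (0.32) or p63 shRNA replicate 1 (0.29) or 2 (0.33), and with array weights and the 6 arrays alone. In Scaber SUCLG2 fell by 0.70 ± 0.16 and IDH3A by 0.47 ± 0.15, and IDH3B rose by 0.38 ± 0.09 (0.28 and not called under median scaling). The groups overlapped for IDH3A, whose call was lost without background correction (-0.25), in the deposited values (-0.24), with the 6 arrays alone or the replicate block, without non-targeting replicate 2 (-0.36), and without STAT3 siRNA replicate 2 (-0.36) or 3 (-0.39). In UC7 SDHC rose by 0.72 ± 0.12 and IDH3A by 0.44 ± 0.15, and OGDH fell by 0.45 ± 0.12. With averaged probes SDHC rose by 0.45. The IDH3A call in UC7 was lost when any of the 6 arrays was left out (0.39 to 0.49), with median scaling, no filter and the replicate block, and that of OGDH with averaged probes (-0.10) and without rosiglitazone replicate 1 (-0.39).

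Of 14 fatty acid synthesis genes, 2 rose and 6 fell in UC14, 7 and 1 in Scaber, and 4 and 1 in UC7. The alternatives gave 6 to 9 calls for UC14, 4 to 9 for Scaber and 4 to 8 for UC7. Median scaling called 2 higher and 2 lower in Scaber. The desaturase SCD, the synthase FASN and the elongase ELOVL5 fell in UC14 by 1.46 ± 0.09, 0.98 ± 0.14 and 0.78 ± 0.12. In Scaber FASN rose by 0.62 ± 0.14, FADS2, undetected in controls, was at least 1.1-fold higher and FADS1 fell by 0.61 ± 0.10. In UC7 SCD rose by 1.6 ± 0.09 and ACSS2 by 0.69 ± 0.10, and ME1 fell by 0.86 ± 0.12.

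**Figure D5:**
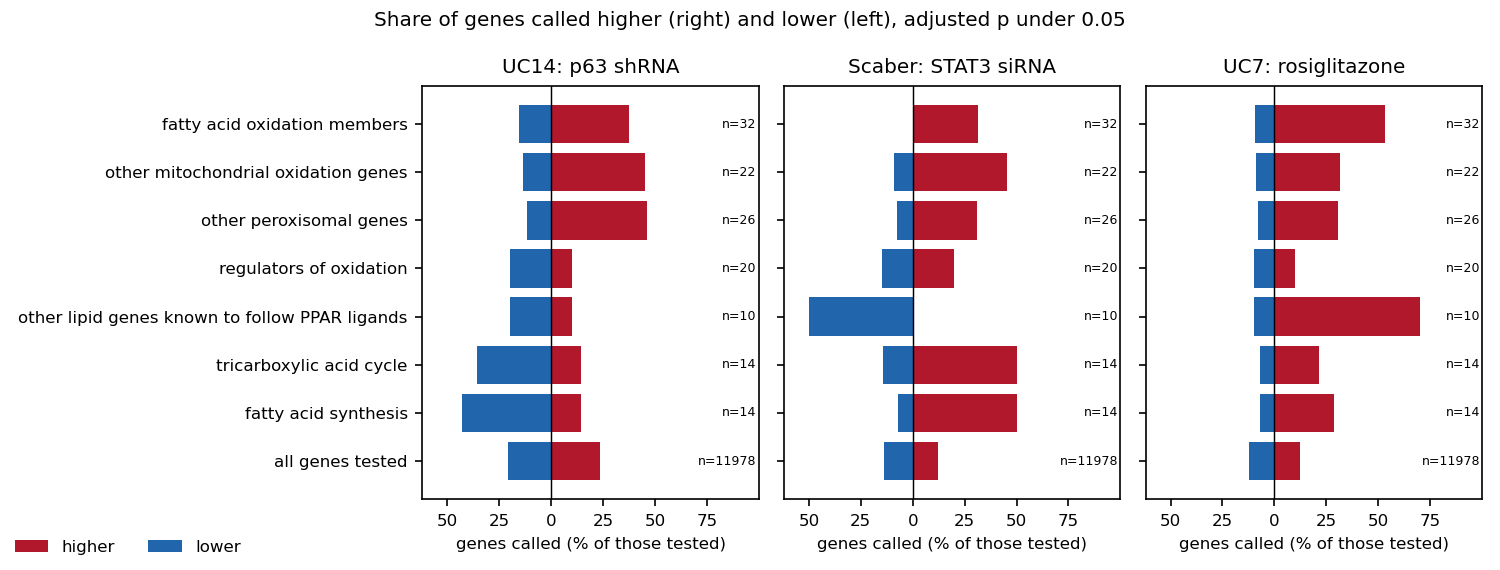
Share of genes called higher (red, to the right) and lower (blue, to the left) at an adjusted p under 0.05, in % of the genes tested (n at the right of each bar), for the members, 6 further lists and all 11978 genes. In UC7 red exceeds blue for the members and for 5 of the 6 further lists, whereas in UC14 fatty acid synthesis has 6 of 14 genes lower.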

How the data were processed

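Gene expression was measured on Illumina bead arrays in 18 samples. Per the file headers, the authors exported non-normalized signal intensities of 47323 probes from GenomeStudio, each with a deposited detection p-value against the array's negative controls. The authors also deposited normalized log2 values, which were used as an alternative. The submitters' processing notes name limma, and its version, the genome build and the software version are not given in the sources used here. Quantile normalized log2 values of the raw signals differed from the deposited ones by at most 0.144.

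Signals were corrected and quantile normalized with neqc (normexp on detection p, offset 16) in limma 3.58.1 and R 4.3.3. The platform annotation gave 1 symbol for 30113 probes, several for 8 and did not list 17202, and 30074 probes matched RefSeq gene identifiers with 0 symbols changed. Probes were kept where every array of some group had a detection p under 0.01 (16221), and 1 probe was used for each gene. Of 54 named member probes 45 were kept. A mean for each group was fitted to 18 arrays with lmFit and eBayes (12 residual and 4.29 prior degrees of freedom), and two-sided p-values were adjusted by Benjamini-Hochberg over 11978 genes. The script was tested on simulated data. A gene undetected on all 3 arrays of 1 group is given as a bound, against the higher of its own signal and the lowest detected signal of each array. Arrays of 1 group correlated at 0.98 to 0.997, and the number of arrays, not a read depth, limits the precision.

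The members, the 7 further lists (139 genes), the role groups and the promoter letters were chosen with earlier results of these data known. Named with the value of every array were the 6 called members with the largest change in each comparison and any opposing the majority (CPT1A in UC7 and CAT were added after their values were seen), and of each further list the 3 called genes with the largest change. Alternatives were no background correction, the deposited values, median scaling, no filter, the mean of a gene's probes, array weights, the arrays of 1 line alone, a replicate block and leaving out each array.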

Additional observations from a re-analysis of the deposited data

How the results depend on the processing

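No member in any comparison reversed a called direction under the alternatives. Calls of 10 of 17 members in UC14, 3 of 10 in Scaber (ETFA, ACAA1 and ACAT1) and 11 of 20 in UC7 were kept under all alternatives run. Members not called above but called under at least 1 alternative numbered 6 in UC14, 6 in Scaber and 4 in UC7. Median scaling called 3 members in Scaber, 12 in UC7 and 8 for the difference between UC7 and UC14. Of the 20 UC7 calls it lost 9, and the 12 include a call not made with quantile normalization. It moved the median change of the members to 0.259, 0.044 and 0.317 in UC14, Scaber and UC7. That of all genes moved to 0.0987, -0.0745 and -0.0595. The cause was not tested. Without background correction the median was 0.153 in Scaber and 0.311 in UC7, and with the deposited values 0.156 and 0.32. In Scaber it was 0.165 without the detection filter, 0.203 with averaged probes and 0.16 with array weights. Leaving out 1 array gave 12 to 18 members and a median of 0.105 to 0.21 in UC14, 7 to 10 and 0.171 to 0.22 in Scaber, and 16 to 19 and 0.361 to 0.425 in UC7. Of all genes, 4894 were called in UC7 with array weights and 4831 with its 6 arrays alone, against 2934. The array weights ranged from 0.372 to 0.816 for UC14, 0.484 to 1.93 for Scaber and 1.07 to 2.48 for UC7. The UC14 calls of CPT2, HADHA, HSD17B4, CROT, CAT and PEX19, the Scaber calls of CPT1A, SLC25A20 and PEX16 and the UC7 call of PEX16 were also lost under at least 1 of array weights, the arrays of the line alone, no filter, averaged probes and the replicate block.

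The fit above did not pair arrays by replicate number, and the correlations below cannot show whether same-numbered arrays were run together. Deviations of same-numbered arrays had correlations from -0.044 to 0.03 (UC14), -0.106 to 0.257 (Scaber) and -0.01 to 0.124 (UC7). With the number as a replicate block, 14 members were called in UC14, 7 in Scaber and 19 in UC7 (19 also by the letter in the title), and 13, 10 and 14 for the differences between UC7 and UC14, UC7 and Scaber, and UC14 and Scaber. All genes called were then 5286, 2950 and 2747, and the medians were the same.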
